A study of Mus musculus with 8 samples.

Results

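Shoulders are stretches of chromatin close to a site that carried trimethylated lysine 4 of histone H3 (H3K4me3) in every library, but which were themselves marked in only some libraries. The peaks of 4 H3K4me3 libraries were merged into 19712 regions. Shared domains are the 14943 regions (75.8%) in which every library had a peak. The other 4769 regions are variable, with a peak in 1 to 3 libraries. A shoulder is a variable region whose gap to the nearest shared domain was at most 1000 bp, and 1776 regions, 9.01% of all regions and 37.2% of the variable ones, were chosen by these measured values of presence and distance. The remaining 2993 variable regions, farther from any shared domain, are called isolated here. Presence and gap are therefore descriptions below, while width, score and the width of the neighbouring domain were not used to choose the shoulders. The rule still bears on them, since a peak that reaches a shared domain is merged into it, and a shoulder lacks a peak in at least 1 library. How far this sets width and score was not tested.

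The study profiled H3K4me3 by chromatin immunoprecipitation and sequencing in whole mouse brain at stage E12.5. It compared wild type controls without Cre (WT) with double knockouts labelled Lats1/2;Nestin-Cre (dKO), all of mixed strain background, with 2 H3K4me3 libraries in each group. Nestin-Cre is active in neural progenitors and the cells derived from them, so other cells of the brain keep Lats1 and Lats2. Only the dKO group carries Cre, and an effect of Cre cannot be told apart from loss of Lats1 and Lats2. Brains were dissociated one by one per the protocol, yet the labels tie no library to an animal, so the p-values reflect library spread only, which may be technical. The 4 input libraries were not analysed here.

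H3K4me3 is deposited by SET1 and MLL complexes and is a hallmark of active and poised promoters, where it flanks the nucleosome-depleted start site and often spreads into the start of the transcribed region. Lats1 and Lats2 are kinases of the Hippo pathway that phosphorylate the co-activators YAP and TAZ and keep them out of the nucleus. When the kinases are lost, YAP and TAZ can enter the nucleus and drive transcription through TEAD factors. In broad promoter domains the mark is commonly weaker towards the edges than at the centre.

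The lengths of the deposited lists were 19486 (WT replicate 1), 19331 (WT replicate 2), 18048 (dKO replicate 1) and 17367 (dKO replicate 2) peaks. They covered 20.3 and 21.4 Mb in WT against 19.3 and 17.3 Mb in dKO. The median score of a peak was 338.5 and 324 in WT against 312 and 230 in dKO, and dKO replicate 2 was lowest on all 3 measures. The lists hold no read counts, so the sequencing depth behind each value is unknown. List length, total width and median score were lower in dKO, as were the shoulder counts below, and their part in those counts was not tested. Coordinates are those of the deposited mm9 lists, which carry no gene names, so regions are identified by position, and neither the loss of Lats1 and Lats2 nor markers of brain cells were checked here.

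Fewer shoulders carried a peak in the dKO libraries than in the WT libraries. A peak was present in 1031 shoulders (58.1%) in WT replicate 1 and 1253 (70.6%) in WT replicate 2. It was present in 599 (33.7%) in dKO replicate 1 and 205 (11.5%) in dKO replicate 2. Both dKO libraries lay below both WT libraries, and the dKO libraries also differed from each other by more than the WT libraries did. The group means were 1142 ± 157 in WT against 402 ± 279 in dKO (SD, n = 2 each). The difference of -740 shoulders had a two-sided exact permutation p = 0.3333, the smallest that 2 libraries against 2 can give, so this design cannot place any such difference past a threshold of 0.05. The choice of shoulders used presence in the same lists, though not the genotype, so this count and those below are read as descriptions.

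The dKO libraries were also lower relative to the length of each list. Peaks in shoulders made up 5.38% and 6.56% of all peaks in WT against 3.36% and 1.19% in dKO. The means were 5.97 ± 0.835% in WT against 2.28 ± 1.54% in dKO (SD, n = 2), a difference of -3.69 percentage points with the same exact permutation p = 0.3333. In base pairs, shoulder peaks covered 351608 and 437340 bp in WT against 200870 and 60242 bp in dKO. That is 1.73% and 2.04% of all marked bases in WT against 1.04% and 0.348% in dKO. The means of 394474 ± 60622 bp and 130556 ± 99439 bp (SD, n = 2) differed by -263918 bp, again with exact permutation p = 0.3333.

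The groups lay closer together when the lists were made equally long. When each list was limited to its 17367 highest-scoring peaks, the length of the shortest list, 1200 shoulders were found. A peak was then present in 548 and 712 of them in WT and in 547 and 334 in dKO, so that WT replicate 1 and dKO replicate 1 differed by a single region. The regions were drawn anew from the shortened lists, and dKO replicate 2, whose list kept all its peaks, rose from 205 to 334 shoulders. The difference between group means shrank to -189.5 shoulders, with exact permutation p = 0.3333. As a share of peaks it was -1.07 percentage points, with exact permutation p = 0.6667. Without dKO replicate 2 the full-list difference was -543 shoulders, and without dKO replicate 1 it was -937, with shoulders still those drawn from all libraries.

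**Figure D1:**
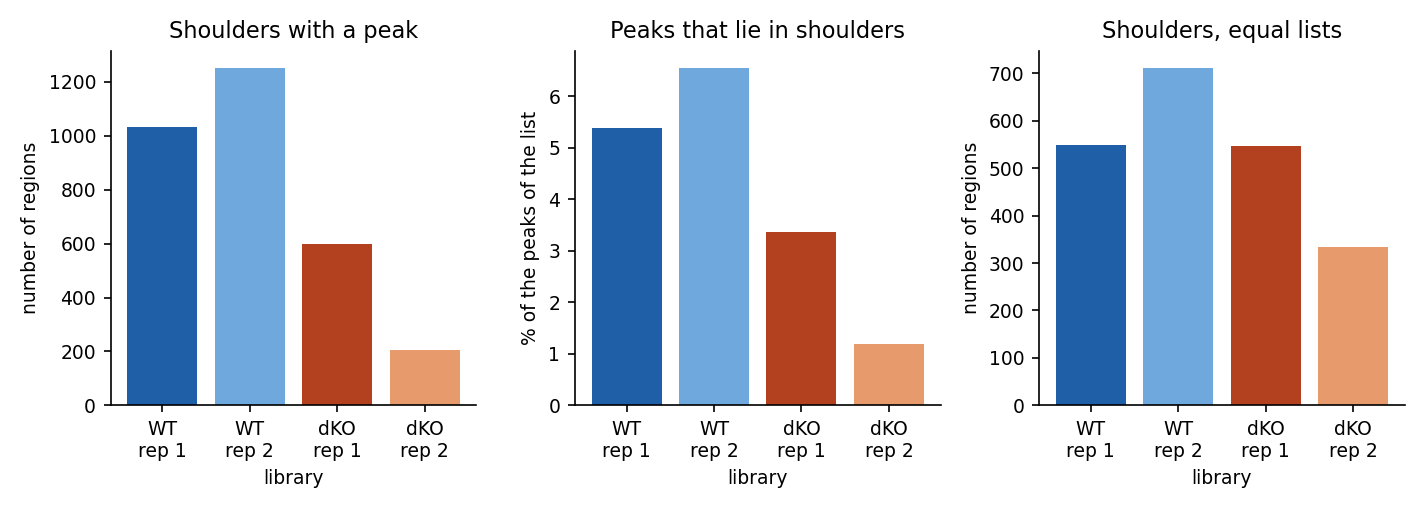
Each bar is 1 H3K4me3 library (2 WT, 2 dKO), with no error bars because a bar is a single value: the number of shoulders with a peak (left), the percent of the peaks of the list that lie in shoulders (middle), and the number of shoulders with a peak when all lists are limited to equal length (right). The WT libraries have 1031 and 1253 shoulders against 599 and 205 in dKO, whereas with equal lists WT replicate 1 (548) and dKO replicate 1 (547) are level.

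Isolated variable regions showed the same order of libraries. Of the 2993 isolated regions, 62.5% and 72.7% had a peak in the WT libraries and 38.9% and 11.6% in the dKO libraries. The rule removes every region marked in all 4 libraries, so a library with few variable peaks is low in both kinds of region. The lower counts in dKO were present in both kinds of region.

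The commonest presence pattern was a single library. A peak in 1 library was found for 895 shoulders (50.4%), in 2 libraries for 450 (25.3%) and in 3 for 431 (24.3%), against 42.9%, 28.5% and 28.6% of the isolated regions. WT replicate 2 alone accounted for 478 shoulders and WT replicate 1 alone for 292. Only 100 were found in dKO replicate 1 alone and 25 in dKO replicate 2 alone. Among shoulders missing from 1 library, dKO replicate 2 was the missing one in 302 of 431. The other 3 patterns of this kind held 74 shoulders lacking only dKO replicate 1, 33 lacking only WT replicate 1 and 22 lacking only WT replicate 2.

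By genotype, 1037 shoulders (58.4%) had peaks in WT libraries only, 604 (34.0%) in both genotypes and 135 (7.60%) in dKO libraries only. The corresponding shares of isolated regions were 53.3%, 40.2% and 6.52%. Of the shoulders, 267 (15.0%) had peaks in the 2 WT libraries and none in dKO. This pattern made up 15.8% of all variable regions and 16.3% of the isolated ones, so the share among shoulders was close to the background. The opposite pattern, both dKO libraries and neither WT library, was found in 10 shoulders (0.563%), against 0.566% of all variable regions and 0.568% of isolated regions. Since presence chose the regions, these shares describe them and carry no test.

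**Figure D2:**
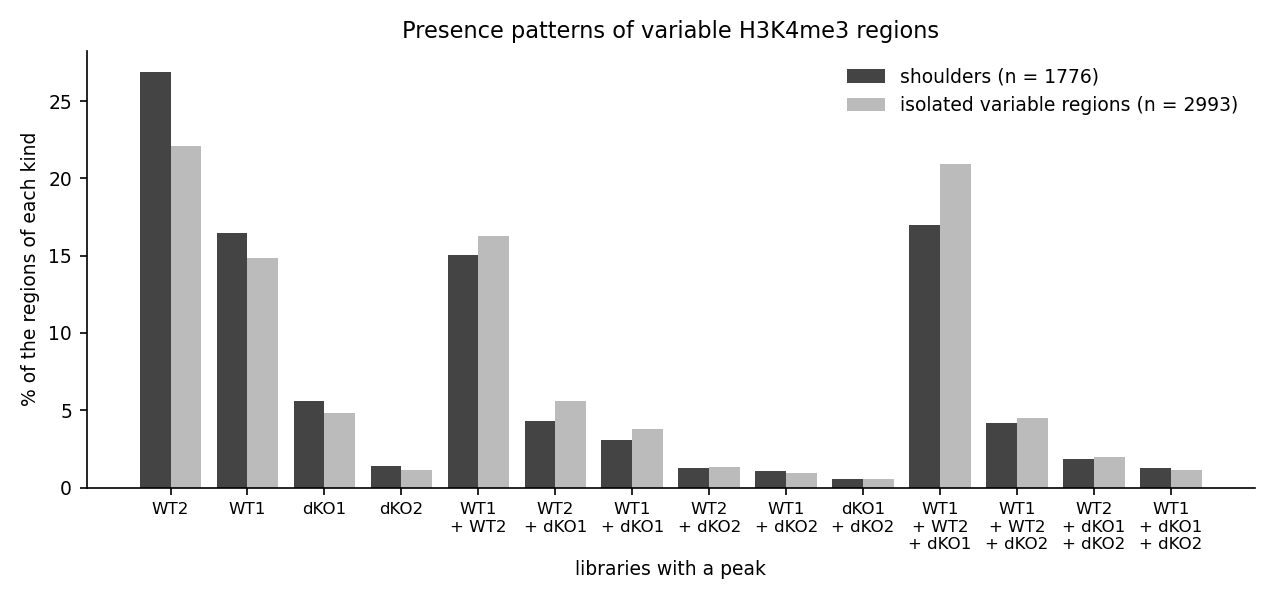
Bars give the percent of shoulders (dark) and of isolated variable regions (light) that had a peak in exactly the libraries named under each pair of bars. WT replicate 2 alone is the commonest pattern among shoulders (478 of 1776), and patterns that include dKO replicate 2 are rare in both kinds of region.

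Over all shoulders, the share with a peak was 58.1% and 70.6% in the WT libraries and 33.7% and 11.5% in the dKO libraries. The WT libraries had 643 shoulders in common, 62.4% of those with a peak in WT replicate 1 and 51.3% of those in WT replicate 2. The dKO libraries had 65 in common, 10.9% of those in dKO replicate 1 and 31.7% of those in dKO replicate 2. A peak in WT replicate 2 was also present in 412 shoulders of dKO replicate 1 (68.8%) and 129 of dKO replicate 2 (62.9%). Each of these overlaps lay below the share of all shoulders that had a peak in the other library. So did that of WT replicate 1 and dKO replicate 2, with 115 in common (11.2% and 56.1%). The overlap of WT replicate 1 and dKO replicate 1 lay above that share in both directions. It held 379 shoulders, 36.8% of those in WT replicate 1 and 63.3% of those in dKO replicate 1. Regions marked in all 4 libraries are excluded by definition, which lowers every one of these overlaps.

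Most shoulders lay close to their domain. The median gap was 196 bp (quartiles 127 and 317 bp), and 1529 shoulders (86.1%) lay within 500 bp. Only 247 lay between 501 and 1000 bp, and the next 500 bp beyond the limit held 117 variable regions, so the limit falls on a thinning tail. The shoulders fell almost evenly on the 2 sides, with 900 at higher and 876 at lower coordinates than the domain. Isolated regions had a median gap of 28651.5 bp.

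The density of gaps stepped up just above 100 bp, and the lists themselves hold a smallest distance of that size. No peak in any of the 4 lists lay closer than 101 bp to the next peak of the same list. A shoulder can be nearer than that to its domain only when their facing edges were set by different libraries, and 223 shoulders (12.6%) had a gap of 100 bp or less. The bin of 101 to 150 bp alone held 383 shoulders, compared with 139 in the bin of 51 to 100 bp. Measured within its own list, the nearest other peak to a shoulder peak was at a median of 249 and 237 bp in WT against 261 and 345 bp in dKO. Up to 200 bp away lay 33.7% and 36.2% of shoulder peaks in WT against 30.8% and 17.9% in dKO.

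At the edge of the rule stand regions that differ from each other by a few base pairs of gap. The shoulder at chr4:45836293-45836597 lay 1000 bp and the one at chr2:160194743-160195239 lay 998 bp from a domain, and both had a peak in WT replicate 2 only, of 305 and 497 bp. Just outside, with gaps of 1001 bp, lay chr6:84536016-84536257, marked by a 242 bp peak in dKO replicate 1, and chr6:85142226-85142430, marked by a 205 bp peak in WT replicate 2.

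**Figure D3:**
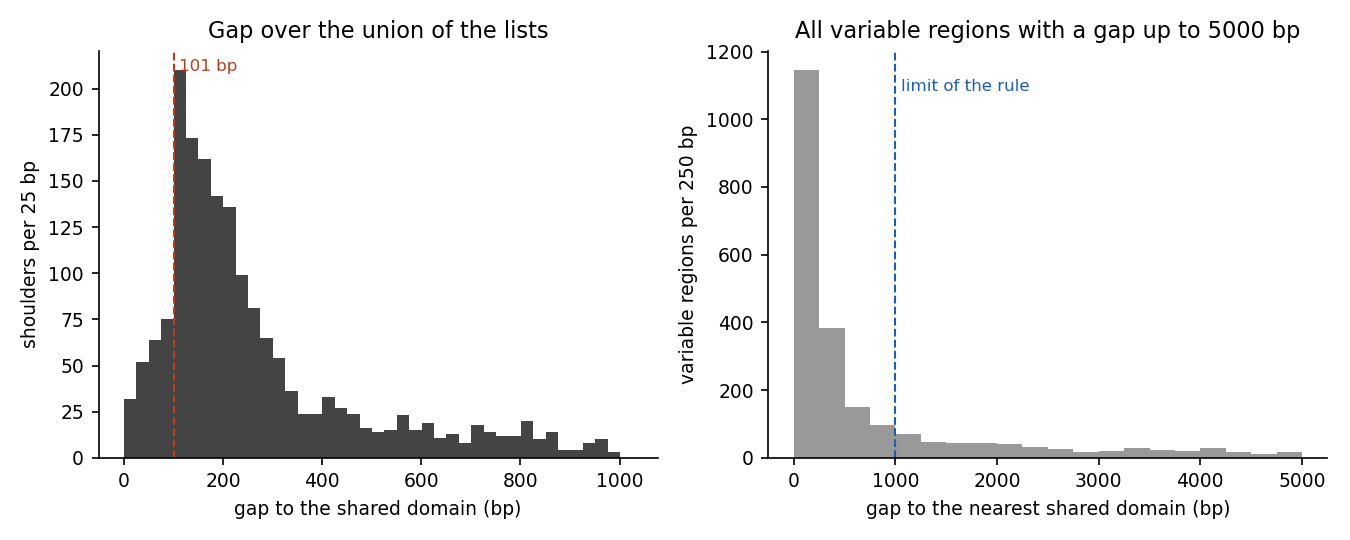
Left, the number of shoulders per 25 bp of gap to the shared domain (bp), with a dashed line at 101 bp, the smallest distance between peaks within any list. Right, all variable regions with gaps up to 5000 bp, per 250 bp, with the 1000 bp limit marked: the count steps up at the line on the left and thins out before the limit on the right.

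Shoulder peaks were narrow and weak for their lists. Their median width was 286 and 294 bp in WT against 293 and 259 bp in dKO, while the shared domains beside them had medians of 1176 and 1256 bp in WT against 1159 and 1054 bp in dKO. The widest single shoulder peak in each library measured 1527 and 1476 bp in WT against 942 and 690 bp in dKO. The group means of the median width, 290 ± 5.66 bp and 276 ± 24.0 bp (SD, n = 2), differed by -14 bp, with a two-sided exact permutation p = 0.6667. The median of dKO replicate 1 lay between those of the WT libraries, dKO replicate 2 was lower, and without it the difference was 3 bp. With lists of equal length the difference was -41 bp, and without peaks under 300 bp it was -30.75 bp, both with exact permutation p = 0.3333 and both dKO libraries below both WT libraries.

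A shoulder peak's score was ranked within its own list, as a percentile from 0 (lowest) to 100, because the scale of the score is not named. The median percentile was 11.5 and 10.6 in WT against 8.83 and 6.31 in dKO. Peaks in isolated regions had medians of 11.5 and 11.9 in WT against 8.83 and 6.31 in dKO. The difference between the 2 kinds was 0 in 3 libraries and -1.25 in WT replicate 2, with a mean of -0.31 and an exact sign-flip permutation p = 1.0 over 4 libraries. Shoulder peaks were narrower than isolated ones in 4 of 4 libraries, by 21, 32, 11 and 18 bp. The mean difference was -20.5 bp with an exact sign-flip permutation p = 0.125, the smallest that 4 libraries can give. A shoulder peak wide enough to reach its domain would have been merged into it, a limit that binds isolated regions less. The part of that limit in the difference was not tested.

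Shoulders found in more libraries were wider and ranked higher. The median width was 249 bp for those with a peak in 1 library, 288 bp for 2 and 351 bp for 3. The median of the best score percentile rose from 6.50 through 13.75 to 20.3. The gap changed little, with medians of 207, 191.5 and 187 bp. Being found in more libraries gives more chances of a high best percentile, so this order is a description only. The percentile was also averaged over the libraries with a peak. Its median by presence pattern was 3.67 to 7.1 for 1 library, 6.58 to 10.83 for 2 and 10.76 to 14.8 for 3. Across the 1776 shoulders, which are not independent and share 4 lists, width and best percentile had a Spearman rho of 0.437, and the width of a shoulder had rho = -0.0038 with the width of its domain.

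The highest-ranked shoulder by mean percentile was chr2:143370991-143371725, with 721 and 344 bp in WT as well as 621 bp in dKO replicate 1, at percentiles of 43.59, 36.06 and 32.02. It lay 142 bp from a domain of 1520 to 2012 bp. Next came chr1:24107430-24107769, with 298, 340 and 338 bp in the same 3 libraries and a mean percentile of 36.19. The third was chr9:121627652-121628390, with 739, 419 and 349 bp and a mean percentile of 33.94. All 3 lacked a peak in dKO replicate 2 only. Even these stood below the middle of their lists.

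The median width of shared domains with a shoulder was slightly above that of domains without one in each library. There were 1639 domains (11.0%) with a shoulder and 13304 without. Of the former, 1506 had 1 shoulder, 129 had 2 and 4 had 3, and 64 had shoulders on both sides. Median domain width with and without a shoulder was 1176 against 1158.5 bp in WT replicate 1, 1256 against 1220 bp in WT replicate 2, 1159 against 1125.5 bp in dKO replicate 1 and 1054 against 1031.5 bp in dKO replicate 2. On the log2 scale the difference was 0.02, 0.04, 0.04 and 0.03, positive in 4 of 4 libraries, with a mean of 0.03 and an exact sign-flip permutation p = 0.125, the smallest possible. With lists of equal length the mean was -0.034, the opposite direction. The same domains were compared in every library, so the 4 differences are not independent.

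The share of domains with a shoulder was highest in the upper tail of domain width, which is given as a description with no test. When domains were ordered by mean width and divided into 5 equal groups, 10.7%, 11.2%, 9.43% and 9.18% of the 4 narrower groups had a shoulder, and 14.3% of the widest. Of the 79 domains of at least 4000 bp, 28 (35.4%) had one, and of the 29 of at least 5000 bp, 12 (41.4%) did. These width limits were picked after the values were seen. The share of domains called in several peaks, with and without a shoulder, was 12.8% against 9.42% and 8.42% against 5.48% in WT, and 10.1% against 7.91% and 14.2% against 11.1% in dKO. The median score percentile of domains with a shoulder was the lower one in each library, at 58.0 against 61.7 and 57.6 against 61.5 in WT and at 54.7 against 58.7 and 52.3 against 56.6 in dKO.

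Within a library, the difference in domain width between places where the shoulder was present and absent was small and positive. For each shoulder and library, the domain's log2 width was centred on the library median and set against its own mean over the 4 libraries. The median of this deviation was higher with the shoulder present than absent by 0.018, 0.0008, 0.01 and 0.031 in WT replicates 1 and 2 and dKO replicates 1 and 2. The mean of 0.015 was positive in 4 of 4 libraries, with an exact sign-flip permutation p = 0.125. It was 0.0053 without dKO replicate 2 and 0.0061 with lists of equal length, where the exact sign-flip permutation p was 0.5. Each deviation was taken from a mean over the same 4 libraries, so the differences of the libraries are not independent. The edge of the domain that faced the shoulder stopped short of the outermost edge over all libraries by a median of 26 bp where the shoulder was present and 30 bp where it was absent in WT replicate 1. The same pair was 11 and 8 bp in WT replicate 2, 27 and 39 bp in dKO replicate 1 and 45 and 66 bp in dKO replicate 2. The far edge, which faces away from the shoulder, gave 35 and 42, 15 and 13, 54 and 54, and 115 and 101 bp in the same order.

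A limma fit over all 14943 shared domains compared their log2 widths, centred on each library's median, between dKO and WT. One domain passed an adjusted p under 0.05 as wider in dKO (0.00669% of those tested), and it was 1 of the 1639 with a shoulder. None passed as narrower (0.0%), and at an unadjusted p under 0.05 the counts were 422 wider (2.82%) and 725 narrower (4.85%). Among domains with a shoulder, the unadjusted counts were 62 wider (3.78%) and 107 narrower (6.53%). The median log2 difference was 0.04 in domains with a shoulder and 0.02 in those without, against a median standard error of 0.14 in both. Without dKO replicate 1, which leaves a single dKO library assumed to vary like the WT ones, 3 domains passed as wider and 106 as narrower.

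The domain that passed was chr2:117937631-117939938. Its width was 345 and 378 bp in WT against 2185 and 1988 bp in dKO, so the groups lay far apart. The log2 difference was 2.67 ± 0.135 (SE), with an adjusted p of 0.00809 in limma. In dKO replicate 2 the domain was called as 3 peaks, and 201 bp beyond its end lay a shoulder of 648 bp at chr2:117940140-117940787 that no other library had. This shoulder was also the widest of the 25 found in dKO replicate 2 alone, and ranked at percentile 4.21 of that list. In dKO replicate 1 the marked stretch was 1 unbroken peak that ended before the position of the shoulder. The call was lost without dKO replicate 2, where limma gave 2.68 with an adjusted p of 0.0852, and without centring, where it gave 2.53 with an adjusted p of 0.0756.

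The next 4 domains with a shoulder by smallest p in the wider direction did not pass, with limma adjusted p from 0.194 to 0.207. The domain chr3:145310172-145313223 measured 1579 and 1519 bp in WT against 3052 and 2242 bp in dKO. Its shoulder, chr3:145313497-145314025, was 262 bp in WT replicate 2 and 529 and 377 bp in dKO. At chr11:35792369-35794506 the domain measured 1446 and 1573 bp in WT against 2138 and 1917 bp in dKO, and a shoulder 18 bp before it had peaks of 215 and 257 bp in the dKO libraries only. The other two, chr13:81769710-81772452 and chr8:37675161-37677371, each had a shoulder in dKO replicate 1 alone, of 220 and 282 bp.

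Among domains with a shoulder, the 5 with the smallest p in the narrower direction had 6 shoulders, all with peaks in WT libraries only, a kind that made up 58.4% of all shoulders. None of these domains passed, with a limma adjusted p of 0.184 for each, and all 5 passed without dKO replicate 1, with adjusted p from 0.0342 to 0.0448. At chr11:60021928-60024001 the domain measured 1998 and 1928 bp in WT against 1002 and 886 bp in dKO, and its shoulder 399 and 287 bp in WT. At chr2:71381974-71385110 the domain measured 2974 and 2756 bp in WT against 1640 and 1347 bp in dKO, with a shoulder of 256 and 208 bp in WT. The domain at chr7:3391458-3392480 went with a single 212 bp shoulder peak in WT replicate 2. The domain chr7:58876925-58878258, 1054 and 1055 bp in WT against 336 and 364 bp in dKO, had 2 shoulders on the same side, of 303 bp in WT replicate 1 and of 648 and 385 bp in both WT libraries.

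The neighbouring domains were also sorted by the genotype in which the shoulder was present. Of the 135 shoulders with peaks in dKO only, 14 shoulders (10.4%) had a domain that was wider and 5 (3.70%) a domain that was narrower in dKO at an unadjusted limma p under 0.05, counting a domain once for each of its shoulders. Of the 1037 with peaks in WT only, 32 (3.09%) had a wider and 86 (8.29%) a narrower domain. Of the 604 present in both genotypes, 18 (2.98%) had a wider and 35 (5.79%) a narrower one, against 2.82% wider and 4.85% narrower over all 14943 shared domains. The same libraries chose the shoulder and measured the domain, so these counts are a description. The centred log2 difference of the domain was above 0 beside 71.9% of the dKO-only shoulders, 57.2% of the WT-only ones and 55.4% of all shared domains. Without centring the median of all domains moved from 0.02 to -0.12, and those shares became 34.1%, 20.8% and 20.0%, so the direction beside dKO-only shoulders flips with the scaling. With quantile normalization they were 71.1%, 56.1% and 56.5%, and the dKO-only share was the highest under all 3 scalings. The WT-only share above 0 lay near that of all domains, yet narrower domains at an unadjusted p were more frequent there, at 8.29% against 4.85%. Of the 267 shoulders in both WT libraries and neither dKO library, 32 (11.985%) had a narrower and 6 (2.25%) a wider domain at an unadjusted limma p under 0.05. Beside these 267 the centred log2 difference was above 0 in 54.7%, near the share of all domains. These counts too are a description.

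The widest shoulder present in both WT libraries and neither dKO library was chr2:158437756-158438997, with 1135 bp in WT replicate 1 and 1242 bp in WT replicate 2. It began 239 bp beyond the shared domain chr2:158436478-158437516, which measured 932 and 896 bp in WT against 366 and 607 bp in dKO. On the other side, 131 bp before the domain, another shoulder at chr2:158434397-158436346 measured 1846 and 1476 bp in WT, 229 bp in dKO replicate 1 and had no peak in dKO replicate 2. The 2 shoulders held more marked bases than the domain itself in both WT libraries. Domain and shoulders together covered 3913 and 3614 bp in WT against 595 and 607 bp in dKO.

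The domain alone differed by -0.81 ± 0.292 (SE) on the log2 scale, with a limma adjusted p of 0.61. The domain chr12:89961342-89962567, already among the 5 above, measured 1003 and 1204 bp in WT against 408 and 372 bp in dKO (-1.35 ± 0.172 SE, limma adjusted p of 0.184). Its shoulder at chr12:89962998-89964194 measured 776 and 1106 bp in WT and had no peak in dKO. Shoulders lack a peak in at least 1 library by choice, so sums of a domain and its shoulders are descriptions of these loci, with no test. Adding the shoulders moved the median log2 difference of the 1639 domains from 0.04 to -0.11.

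**Figure D4:**
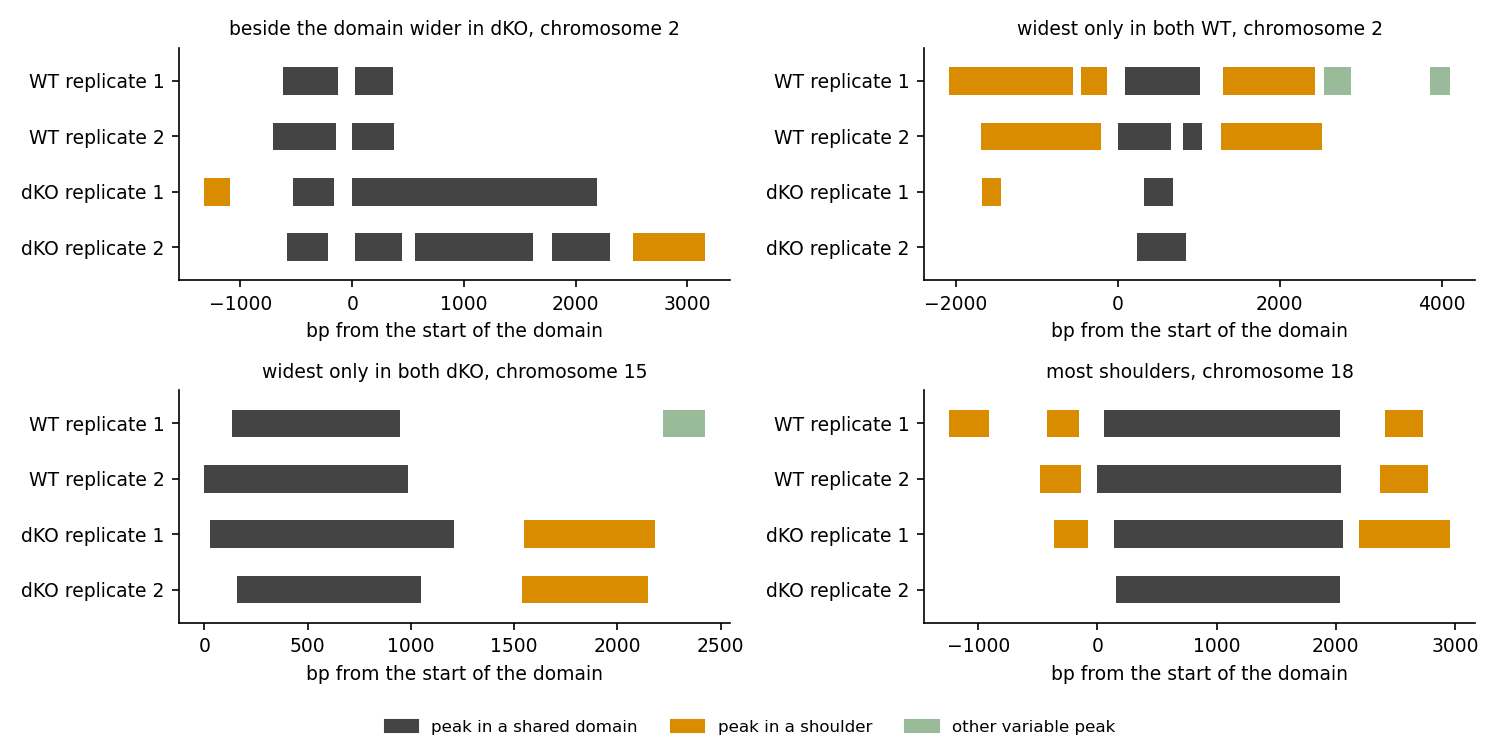
Peaks of each library drawn to scale along 4 loci, in bp from the start of the shared domain named in the text: dark bars are peaks in shared domains, orange bars peaks in shoulders, green bars other variable peaks. At the upper right locus the shoulders are broad in both WT libraries, with 1 short peak in dKO replicate 1 and none in dKO replicate 2. At the upper left the domain is extended in both dKO libraries and followed by a shoulder in dKO replicate 2.

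The other 3 of the 5 widest shoulders present in both WT libraries only stood beside domains with unlike differences. At chr9:41393682-41395279 the shoulder measured 1375 and 898 bp in WT, in 2 peaks each. It was wider there than its domain, which measured 295 and 396 bp in WT against 340 and 309 bp in dKO (log2 difference 0.06 ± 0.267 SE). At chr8:97522678-97523728 the shoulder measured 644 and 876 bp and the domain 3410 and 3934 bp in WT against 3042 and 3177 bp in dKO (log2 difference -0.095 ± 0.094 SE). At chr9:58051142-58052129 the shoulder measured 774 and 757 bp, beside a domain of 2208 and 2517 bp in WT against 1068 and 360 bp in dKO. That domain differed by -1.79 ± 0.417 (SE) on the log2 scale, with a limma adjusted p of 0.434. None of these 3 domains passed the test, with limma adjusted p from 0.434 to 0.959.

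The widest of the 10 shoulders present in both dKO libraries and neither WT library was chr15:79844107-79844753, with 638 and 611 bp. It lay 327 bp beyond a domain of 815 and 988 bp in WT against 1183 and 891 bp in dKO. The second, chr5:93113044-93113592, measured 549 and 479 bp, at percentiles of 27.51 and 6.31 of the 2 lists. Next was chr11:116195626-116196160 with 535 and 423 bp, then chr2:13498649-13499012 with 364 and 328 bp and chr17:86016400-86016777 with 290 and 305 bp. The limma adjusted p of the domains beside these 5 ranged from 0.686 to 0.938. Beside all 10 such shoulders the centred log2 difference of the domain was above 0, with a median of 0.20, and without centring it was above 0 beside 8 of 10. Over all shared domains it was above 0 in 55.4% with centring and in 20.0% without. The same libraries chose these shoulders and measured their domains, so this count is a description.

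The widest shoulder found in dKO replicate 1 alone, 499 bp at chr9:102624524-102625022, lay beside the broad domain chr9:102619197-102624360. That domain measured 4096 and 4216 bp in WT against 5036 and 4950 bp in dKO, and differed by 0.41 ± 0.075 (SE) on the log2 scale with a limma adjusted p of 0.32. In WT replicate 1 alone the widest shoulder was chr9:109956494-109957294, of 801 bp and at percentile 9.81. For WT replicate 2 alone it was chr6:28345822-28346678, of 857 bp but at percentile 2.43.

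Some shoulders lacked a peak in a single library while being among the widest of their presence pattern, ranked by smallest width over the other 3. The shoulder chr13:119503412-119504636 measured 1087 and 825 bp in WT as well as 942 bp in dKO replicate 1, and had no peak in dKO replicate 2. At chr8:89995301-89996487 it was dKO replicate 1 that had none, with 887, 928 and 690 bp in the other 3 libraries. The shoulder chr7:26100229-26100927 lacked only WT replicate 1, with 682 bp in WT replicate 2 and 690 and 405 bp in dKO. At chr16:84773577-84773962 WT replicate 2, the library with the most shoulders, had no peak, while 341 bp were marked in WT replicate 1 and 360 and 300 bp in dKO. Each of the 4 libraries thus missed shoulders that the other replicate of its group held.

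The largest number of shoulders beside a domain was 3, at 4 domains. At chr18:43550823-43552881 the domain was 1984 and 2041 bp wide in WT against 1918 and 1881 bp in dKO. Its shoulders measured 335 bp in WT replicate 1 alone, then 271, 348 and 293 bp, and 321, 406 and 763 bp, both in WT replicates 1 and 2 and dKO replicate 1. At chr2:181502037-181503068 the domain measured 956 and 1008 bp in WT against 689 and 347 bp in dKO. One of its shoulders, chr2:181503192-181503664, had 404 and 377 bp in WT as well as 435 bp in dKO replicate 2, more than the 347 bp of the domain itself in that library.

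The X chromosome had more shoulders for its shared domains than any autosome, a pattern noticed after the values were seen. It held 98 shoulders beside 470 shared domains, or 20.9 per 100 domains, against 11.6 on the autosomes together and a range of 9.24 (chromosome 6) to 13.5 (chromosome 9) among them. By library, the X chromosome had 11.7 and 14.3 shoulders with a peak per 100 domains in WT against 7.87 and 1.70 in dKO, while the autosomes had 6.74 and 8.20 in WT against 3.88 and 1.36 in dKO. In 3 libraries the X chromosome lay above the highest autosome, and in dKO replicate 2 it lay below it (2.13). Isolated regions stood at 26.6 per 100 domains on the X chromosome and 19.8 on the autosomes. Their range among the autosomes was 16.7 (chromosome 16) to 23.1 (chromosome 15), so the X chromosome was highest for isolated regions as well.

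Domains on the X chromosome were narrower, with a median of 906 bp against 1145 bp on the autosomes, and had lower scores. In WT replicates 1 and 2 their median score percentile was 38.7 and 37.1, and that of autosomal domains 62.5 and 62.3. In dKO replicates 1 and 2 the values were 34.4 and 31.0 on the X chromosome and 59.5 and 57.5 on the autosomes. The part of these differences in the shoulder rate was not tested. With lists of equal length the rates were 14.7 and 8.09 per 100 domains. After peaks under 300 bp were left out they were 9.70 and 8.01, a smaller difference. The labels do not give the sex of the embryos, and the Y chromosome had no shoulder.

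**Figure D5:**
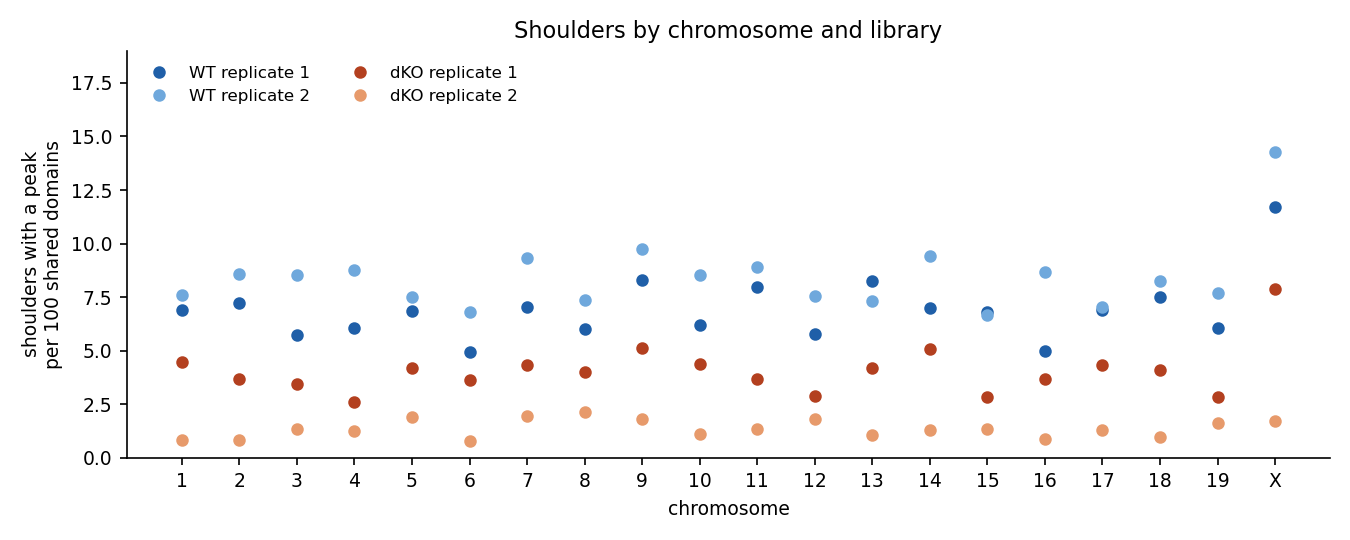
Each point is 1 library on 1 chromosome, as shoulders with a peak per 100 shared domains. On the X chromosome WT replicates 1 and 2 (11.7 and 14.3) and dKO replicate 1 (7.87) stand above all autosomes of the same library, and dKO replicate 2 (1.70) does not.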

How the data were processed

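The data are 4 peak lists, 1 per H3K4me3 library, each with positions and a score. The submitters' processing notes name MACS2 2.1.1.20160309 and bedtools, BWA 0.7.12-r1039, SAMtools and Picard 2.6.0, R 2.14.0, and the mm9 build. The role of each tool, its thresholds and the use of input are not given in the sources used here. The score deposited by the authors has no named scale and was used only as a percentile within its list.

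Peaks were merged with bedtools 2.31.1 (distance 0), and regions were classed by the libraries with a peak and the gap to the nearest shared region. Width is the sum of base pairs under a library's peaks in a region. Group differences used exact permutation tests and within-library contrasts used sign flips, both enumerated in full with numpy 2.4.6. Domain widths used limma 3.58.1 in R 4.3.3 (variance trend, Benjamini-Hochberg over all shared domains), which was tested on simulated data. Named regions are the widest of each presence pattern, the highest ranked, those next to the gap limit, and those beside the domains with the smallest p or the most shoulders. The shoulders of 2 domains, which passed as narrower when widths were summed with shoulders, were added after their values were seen. The shoulders, their rule and these lists were chosen with earlier results of these data known. Alternatives changed the gap limit, list length, smallest peak width, merge distance, chromosomes, libraries, scaling, variance trend, replicate block and domain definition. The 4 input libraries were not used here.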

Additional observations from a re-analysis of the deposited data

How the results depend on the processing

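The lower shoulder count in dKO kept its direction under both other gap limits (500 and 2000 bp), equal lists, peaks of at least 300 bp, merging at 100 bp, autosomes alone and each library left out, and so did the base pairs and the share of peaks. Where a library was left out, the regions and their classes stayed those drawn from all libraries. The difference of -740 shoulders was -189.5 with equal lists and -423.5 without peaks under 300 bp. With 2 libraries a group no setting could bring these past a threshold. The difference in median width of shoulder peaks ranged from -31 to 3 bp with 1 library left out, and reversed without dKO replicate 2. It grew to -41 bp when lists were equally long and to -30.75 bp without peaks under 300 bp (exact permutation p = 0.3333 for both). The difference in domain width between shoulder present and absent was 0.0053 without dKO replicate 2 and 0.0061 with equal lists. The width of domains with a shoulder against those without reversed to -0.034 with equal lists. Domains wider in dKO numbered 0 without centring and 0 to 3 with 1 library left out, and domains narrower numbered 0 to 106 with 1 library left out and 2 with the shoulders added, a sum that holds the presence values by which shoulders were chosen. The domain chr18:43550823-43552881 had a log2 difference of 0.06, which reversed to -0.0439 when peaks were merged at 100 bp, to -0.0833 without centring and to -0.11 with its shoulders. The causes of these changes were not tested. Of 167 alternative values for 13 named domains, 156 kept direction and side of the threshold, 2 lost it, 6 gained it and 3 reversed. Values could not be had for 2 more because the domain was not shared under that setting. Of 37 named shoulders, 25 were still shoulders with equal lists. With the replicate block in the fit, 1 domain was wider and 0 were narrower. The labels do not say whether same-numbered libraries are paired. Deviations of same-numbered libraries had a correlation of -0.0592 over 14943 domains, which cannot show or exclude pairing. Depth is unknown, so a missing peak cannot be told apart from one below the caller's threshold.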
